A study of Mus musculus with 8 samples.

Results

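Fibroblast growth factor (FGF) ligands and their receptors were read in the molar transcriptome as 10 named genes, the ligands Fgf3, Fgf7, Fgf9, Fgf10, Fgf18 and Fgf20 and the receptors Fgfr1, Fgfr2, Fgfr3 and Fgfr4, out of 43629 genes counted. All 10 were found by matching the Ensembl identifiers to mouse symbols, and 9 of them passed the filter on low counts, Fgf20 being the exception. Lower first molars, left and right together, came from 4 K14Cre;Jagged1fl/fl embryos (K14J26, K14J28, K14J29 and K14J30) and 4 Jagged1fl/fl littermates (J3, J5, J6 and J7) at E18.5, and their polyadenylated RNA was sequenced. By the sample labels both groups carry floxed Jagged1 alleles, while the study's methods call the controls WT. In the mutants the keratin 14 promoter drives Cre in the epithelium, so that the Notch ligand Jagged1 is deleted there and not in the dental mesenchyme. Each sample was a whole tooth germ with both tissues. Between 17327224 and 28613574 reads per control and between 24692128 and 29792467 reads per mutant fell on genes, and 3 counts corresponded to between 0.0998 and 0.166 CPM, the counts scaled to library size by the trimmed mean of M-values (TMM). Jag1 itself (chr2:137081456-137116644, GRCm38) stood at 95.2, 103, 104 and 99.9 CPM in the controls J3, J5, J6 and J7 and at 34.0, 39.0, 46.0 and 57.1 CPM in mutants K14J26, K14J28, K14J29 and K14J30. The groups did not overlap, and every mutant kept some Jag1 RNA.

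FGF ligands are secreted proteins that bind tyrosine kinase receptors together with heparan sulfate, and the activated receptors signal through adaptor proteins to the Ras-ERK cascade. ERK activity in turn induces transcription factors of the Etv family and a set of inhibitors, among them the Sprouty proteins and the phosphatase Dusp6, which dampen the signal. In the tooth germ, epithelial ligands such as Fgf9 are known to act on the mesenchyme, while mesenchymal Fgf3 and Fgf10 act back on the epithelium and keep it dividing.

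Of the 9 members tested, 3 were called lower in K14Cre;Jagged1fl/fl molars and 0 were called higher, where called means an adjusted p under 0.05 from edgeR (quasi-likelihood F test, Benjamini-Hochberg procedure over the 17129 genes tested). Among all these genes 6.61% were called lower and 9.52% higher, 16.1% in either direction. The 3 members were the ligands Fgf3 and Fgf9 and the receptor Fgfr4. They were also the only members to pass criteria built on the study's methods, whose limits for p (0.05) and fold change (0.5) were read here as an unadjusted p and a log2 fold change in either direction, which 5.85% of the genes tested met as lower and 8.33% as higher. In the same 3 members, the mutants lay below the controls without overlap, a pattern found in 11.6% of the genes tested, and 0 members had all mutants above all controls, against 12.6%. DESeq2 called the same number of members, 3 lower and 0 higher, where it called 1718 lower and 2244 higher of 17103 genes, and no further member had an unadjusted p under 0.05 in edgeR, against 5971 of all 17129 genes tested. The number of members called by edgeR was 0 with Xist as a covariate, where both embryos with high Xist were mutants, 0 without J3, J5, J7 or K14J29, and 2 without J6. Fgfr4 passed the count filter only through the controls. With a filter of 1 CPM in 4 samples Fgfr4 was not tested, and 2 members, Fgf3 and Fgf9, were called. The median log2 fold change was -0.44 over the 9 members tested and 0.01 over all genes tested.

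**Figure D1:**
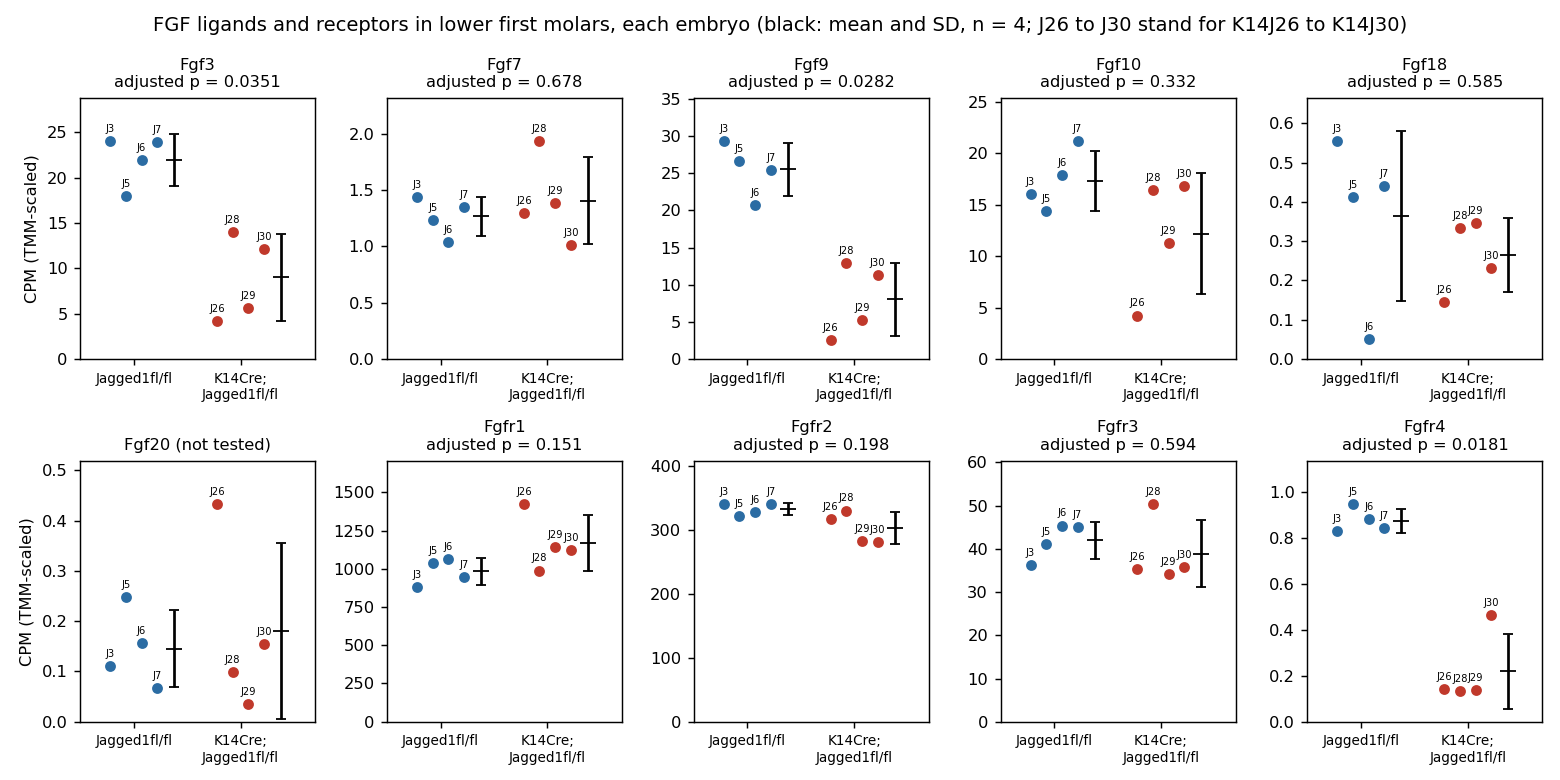
CPM of the 10 FGF members (y axis, linear from 0) in each control (blue) and mutant embryo (red), with the mean and SD of each group in black (n = 4). For Fgf3, Fgf9 and Fgfr4 all 4 mutants sit below all 4 controls, while the groups overlap for the other 7 genes.

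Fgf3, a ligand of the dental papilla that signals to the epithelium, lies on chromosome 7 (ENSMUSG00000031074, chr7:144838083-144844436, plus strand, GRCm38). Its level was 24.0, 17.9, 21.9 and 23.9 CPM in the controls J3, J5, J6 and J7, and 4.23, 14, 5.65 and 12.1 CPM in mutants K14J26, K14J28, K14J29 and K14J30. The mutants thus fell into a low pair, K14J26 and K14J29, and a pair closer to the controls, with no mutant reaching the lowest control. Group means were 21.9 ± 2.83 CPM in controls and 9.0 ± 4.79 CPM in mutants (SD, n = 4), a log2 fold change of -1.28 (SE 0.34, edgeR adjusted p = 0.0351), lower in 4 of 4 mutants. Fewer cells that express a gene and less RNA per cell cannot be told apart in whole molars. The call rested on most of the embryos: without a single embryo the edgeR adjusted p was 0.0882 (J3), 0.0649 (J5), 0.0697 (J6), 0.0933 (J7) or 0.0939 (K14J29), and over the 15 alternatives tried the edgeR or DESeq2 adjusted p ran from 0.00129 to 0.206, with the log2 fold change between -1.58 and -1.05.

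Fgf9 is an epithelial ligand of the tooth germ that acts on mesenchymal cells (ENSMUSG00000021974, chr14:58070547-58112720, plus strand, GRCm38). Controls J3, J5, J6 and J7 had 29.3, 26.7, 20.7 and 25.5 CPM, and mutants K14J26, K14J28, K14J29 and K14J30 had 2.60, 12.9, 5.23 and 11.3 CPM. As with Fgf3, K14J26 was lowest and K14J29 next, and the mutant nearest to the controls, K14J28, still lay under the lowest control, J6. The mean was 25.5 ± 3.60 CPM in controls and 8.03 ± 4.91 CPM in mutants (SD, n = 4). This is a log2 fold change of -1.66 (SE 0.40, edgeR adjusted p = 0.0282), lower in 4 of 4 mutants. Leaving out J3, J5, J7 or K14J29 took the edgeR adjusted p to 0.0759, 0.0676, 0.0770 and 0.0839 in turn. Across the 15 alternatives the edgeR or DESeq2 adjusted p lay between 0.00669 and 0.157 and the log2 fold change between -1.99 and -1.38.

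Fgf10, the second mesenchymal ligand, which signals to the epithelium, is on chromosome 13 (ENSMUSG00000021732, chr13:118669791-118792115, plus strand, GRCm38). Its values were 16.0, 14.3, 17.8 and 21.1 CPM in the controls J3, J5, J6 and J7 and 4.23, 16.5, 11.2 and 16.8 CPM in mutants K14J26, K14J28, K14J29 and K14J30. Only K14J26 was far below the controls, K14J29 was somewhat below, and K14J28 and K14J30 lay inside the range of the controls. With 17.3 ± 2.91 CPM in controls and 12.2 ± 5.89 CPM in mutants (SD, n = 4), the log2 fold change of -0.50 (SE 0.35) was not called (edgeR adjusted p = 0.332). It was -0.23 without K14J26 and -0.77 with the Xist covariate, the ends of its range over the 15 alternatives, and was not called in any of them by edgeR or DESeq2. An antisense gene, Gm16263, shares 123 exon bases with Fgf10, and how the counting used strand is not given in the sources used here, so that reads from this stretch could belong to either gene. Gm16263 had a mean of 0.751 CPM in controls and 0.442 CPM in mutants.

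The remaining ligands were weakly expressed. Fgf7, a mesenchymal ligand of the same subfamily as Fgf10, ranged from 1.04 to 1.44 CPM in controls and from 1.01 to 1.93 CPM in mutants, and its log2 fold change of 0.15 (SE 0.24, edgeR adjusted p = 0.678) was smaller than its error. Fgf18, a ligand known from skeletal growth, had between 1 and 13 counts in each embryo, a log2 fold change of -0.44 (SE 0.53, edgeR adjusted p = 0.585) and overlapping groups. This fold change was -0.22 without J3, -0.77 without J6 and -0.99 with the Xist covariate. Fgf20, an epithelial ligand of the Fgf9 subfamily, had 2, 6, 3 and 2 counts in the controls J3, J5, J6 and J7 and 9, 3, 1 and 4 counts in mutants K14J26, K14J28, K14J29 and K14J30. It stayed under the count filter and was not tested in the full comparison, and without the filter it was tested and not called by edgeR. Fgf20 also shares 202 exon bases with Micu3 on the opposite strand, a gene at 14.9 CPM in controls and 15.2 CPM in mutants, so that its few counts are uncertain.

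The promoters of the ligands and the receptor described here are shown because Fgf3, Fgf9 and Fgfr4 were called lower while Fgf10 was not called. The sequences are those of RefSeq on GRCm38.p6, plus strand, and end where an exon begins in GENCODE M21 or at the RefSeq start: Fgf3 chr7:144838362-144838594, Fgf9 chr14:58072436-58072685, Fgf10 chr13:118714449-118714698 and Fgfr4 chr13:55152568-55152639. The stretch of Fgf3 lies in an intron of 1 other transcript of the gene, that of Fgf9 in an intron of 1 and that of Fgf10 in introns of 2, and the Fgfr4 stretch lies upstream of all its transcripts. Capitals mark the letters of a motif that a search found.
Fgf3 promoter: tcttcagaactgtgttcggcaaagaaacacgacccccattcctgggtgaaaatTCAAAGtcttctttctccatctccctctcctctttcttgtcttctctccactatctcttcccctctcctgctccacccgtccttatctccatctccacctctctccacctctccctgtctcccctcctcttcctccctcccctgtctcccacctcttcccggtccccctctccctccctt
Fgf9 promoter: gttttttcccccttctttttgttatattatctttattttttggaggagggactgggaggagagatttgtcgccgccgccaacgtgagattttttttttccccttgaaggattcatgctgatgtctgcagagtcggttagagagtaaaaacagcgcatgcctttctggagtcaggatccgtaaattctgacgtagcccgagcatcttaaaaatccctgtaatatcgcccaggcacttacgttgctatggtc
Fgf10 promoter: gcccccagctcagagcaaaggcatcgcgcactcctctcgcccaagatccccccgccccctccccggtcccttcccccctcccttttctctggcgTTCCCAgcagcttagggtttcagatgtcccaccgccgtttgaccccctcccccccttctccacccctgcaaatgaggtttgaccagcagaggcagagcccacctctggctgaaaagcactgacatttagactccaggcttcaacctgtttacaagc
Fgfr4 promoter: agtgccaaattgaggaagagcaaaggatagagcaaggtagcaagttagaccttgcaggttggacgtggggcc
A pair of short motifs was searched on both strands, from 250 bases before to 50 bases after the RefSeq start: TGGGAA, part of the sequence bound by RBPJ, the DNA-binding partner of Notch, and CTTTGA, part of that bound by LEF/TCF factors of the Wnt pathway. The table of promoters matched 8 of the 10 members with 9 windows of 300 bases. RBPJ letters were found for 3 of the 8 members, Fgf7, Fgf10 and Fgfr2, and in 25.6% of all 32851 windows. LEF/TCF letters were found for 1 of the 8, Fgf3, and in 16.0% of all windows. In Fgf3 the match began 197 bases before the start, in Fgf10 it began 156 bases before it, and no window printed here held both motifs. A match of letters is a description and not a binding site.

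Among the receptors, Fgfr4 was called lower although it was the least abundant. Fgfr4 (ENSMUSG00000005320, chr13:55152640-55168759, plus strand, GRCm38), a receptor known from muscle progenitors and liver, had 15, 23, 17 and 25 counts in the controls J3, J5, J6 and J7 and 3, 4, 4 and 12 counts in mutants K14J26, K14J28, K14J29 and K14J30. On the CPM scale the same embryos had 0.831, 0.948, 0.882 and 0.845 in the controls and 0.144, 0.133, 0.139 and 0.466 in the mutants. The controls were close to each other, 3 mutants rested on 3 or 4 reads each, and K14J30 stood above them and below every control. Means were 0.876 ± 0.0527 CPM in controls and 0.22 ± 0.164 CPM in mutants (SD, n = 4), a log2 fold change of -1.97 (SE 0.41, edgeR adjusted p = 0.0181), lower in 4 of 4 mutants. Without J3, J5, J7 or K14J29 the edgeR adjusted p was 0.0513, 0.0522, 0.0558 and 0.0607 in turn. Over the 14 alternatives in which Fgfr4 could be tested the edgeR or DESeq2 adjusted p ran from 0.00140 to 0.149 and the log2 fold change from -2.62 to -1.44. Skeletal muscle, in which Fgfr4 is also used, was present in 2 controls: the summed CPM of 13 muscle markers was 436 in J6 and 223 in J7, with Acta1 the most abundant, against 6.15 in J3, 15.2 in J5 and between 7.11 and 21 in the mutants. Fgfr4 in J6 and J7 lay between its values in J3 and J5, an order that rests on 15 to 25 counts per control. Of the markers of muscle progenitors, Pax7 had at most 2 counts and Myod1 at most 3 counts in any embryo, and Myf5 had at most 6 counts in a control and 12 counts in the mutant K14J26. Myog, of the same list of 13, had 1, 5, 12 and 41 counts in the controls J3, J5, J6 and J7. It had 0, 5, 2 and 5 counts in mutants K14J26, K14J28, K14J29 and K14J30 (edgeR adjusted p = 0.0996). The part of muscle in the lower Fgfr4 was not tested.

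Fgfr1, the main receptor of the mesenchyme, had 880, 1039, 1067 and 945 CPM in the controls J3, J5, J6 and J7 and 1423, 989, 1144 and 1123 CPM in mutants K14J26, K14J28, K14J29 and K14J30. K14J26 was the highest of all embryos, K14J29 and K14J30 were slightly above the controls, and K14J28 fell among them. The log2 fold change of 0.25 (SE 0.11) was not called (edgeR adjusted p = 0.151). It was 0.143 without K14J26, 0.136 with library size scaling and 0.392 with the Xist covariate. Fgfr1 was not called in any of the 15 alternatives by edgeR or DESeq2. Fgfr2, whose epithelial isoform binds Fgf3 and Fgf10, had 332 ± 9.45 CPM in controls and 303 ± 24.5 CPM in mutants (SD, n = 4), a log2 fold change of -0.13 (SE 0.07, edgeR adjusted p = 0.198) with overlapping groups. Fgfr3 had 42.0 ± 4.23 and 38.9 ± 7.65 CPM (SD, n = 4), a log2 fold change of -0.11 (SE 0.13, edgeR adjusted p = 0.594). The log2 fold change of Fgfr3 was -0.26 without K14J28 (edgeR adjusted p = 0.0596) and -0.048 without K14J29. Gene counts do not separate the isoforms of a receptor. The gene model of Fgfr2 runs on to share 314 exon bases with Ctbp2, that of Fgfr1 shares 164 exon bases with the antisense gene Gm16159, and that of Fgfr3 shares 998 with an opposite-strand transcript, G630022F23Rik, so parts of these counts are uncertain. Gm16159 had a mean of 0.321 CPM in controls and 0.518 CPM in mutants, far below Fgfr1, and Ctbp2 had 42.7 CPM in controls and 35.9 CPM in mutants.

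Levels of different genes were compared as CPM per kb of exon. In controls the order of the mean levels per length was Fgfr1 (99.5), Fgfr2 (32.2), Fgf3 (9.43), Fgfr3 (5.86), Fgf9 (5.49), Fgf10 (3.77), Fgf7 (0.390), Fgf18 (0.307), Fgfr4 (0.247) and Fgf20 (0.0866). Fgfr3, Fgf9 and Fgf10 overlapped with their neighbours in this order from embryo to embryo, as did Fgf7, Fgf18 and Fgfr4. In mutants the mean level per length was 3.87 for Fgf3, 2.65 for Fgf10 and 1.73 for Fgf9, so that Fgf3 ranked below Fgfr3 (5.44), Fgf9 ranked below Fgf10, and Fgfr4 (0.0622) ranked last, below Fgf20 (0.108). With the longest transcript in place of all exons, Fgfr3 (9.89) came before Fgf3 (9.54) in controls, and the order of the other members in controls did not change. Of the summed per-length level of the 4 receptors, Fgfr1 held 72.1 ± 2.03% in controls and 77.0 ± 3.55% in mutants, and Fgfr2 held 23.4 ± 2.03% and 19.3 ± 2.55% (SD, n = 4). Fgfr4 made up 0.180 ± 0.00800% in controls and 0.0415 ± 0.0324% in mutants (SD, n = 4). These shares are given without a test.

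**Figure D2:**
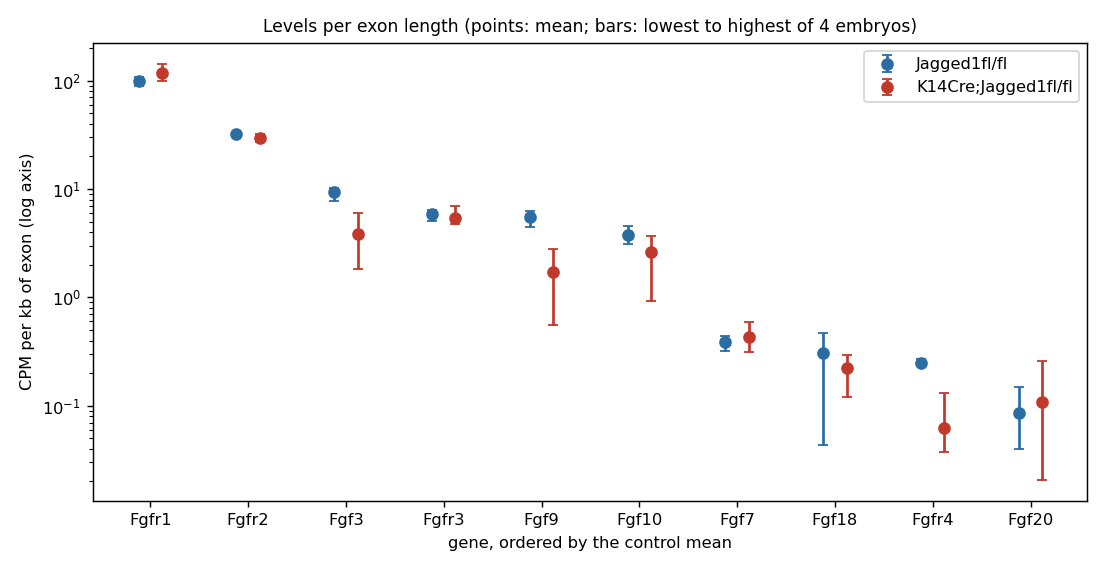
Mean CPM per kb of exon of each member (log axis) in controls (blue) and mutants (red), with bars from the lowest to the highest of 4 embryos. The receptors Fgfr1 and Fgfr2 stand above all ligands in both groups, and the largest gaps between the groups are those of Fgf3, Fgf9 and Fgfr4.

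Ratios of 2 members within an embryo do not depend on how libraries are scaled, and 6 pairs were compared with exact two-sided permutation tests over the 70 arrangements of the embryos, whose smallest p is 0.0286. The log2 ratio of Fgf3 to Fgf10, the 2 mesenchymal ligands, was 0.58, 0.32, 0.29 and 0.18 in the controls J3, J5, J6 and J7 and 0.0, -0.23, -0.99 and -0.48 in mutants K14J26, K14J28, K14J29 and K14J30. All mutants lay below all controls, also K14J26, in which both ligands were low. The difference of -0.77 had the smallest p that the exact test can give, 0.0286, and an adjusted p of 0.0857 over the 6 pairs. Fgf9 over Fgf3 also lay below all controls in 4 of 4 mutants, narrowly so, since the lowest control (J6) was at -0.08 and the highest mutant (K14J30) at -0.10, with a difference in log2 ratio of -0.47 (exact p = 0.0286, adjusted p = 0.0857). With counts plus 0.5 the other pairs overlapped between the groups. The difference was 0.79 for Fgf7 over Fgf10 (exact permutation adjusted p = 0.206) and -1.86 for Fgf9 over Fgf20 (adjusted p = 0.129). It was 0.38 for Fgfr1 over Fgfr2 (adjusted p = 0.129) and 0.01 for Fgfr3 over Fgfr2 (adjusted p = 0.914). Without K14J26 the difference was 0.37 for Fgf7 over Fgf10 and -0.87 for Fgf9 over Fgf20, whose Fgf20 counts were between 1 and 9. With a pseudocount of 2 the exact permutation adjusted p was 0.0571 for Fgf9 over Fgf20, for Fgf3 over Fgf10 and for Fgf9 over Fgf3. Thus 0 of the 6 pairs passed the adjusted test. Fgf3 over Fgf10 and Fgf9 over Fgf3 were at the smallest p, 0.0286, and still had an adjusted p of 0.0857. A pass needed most of the 6 pairs at that p, so this does not show equal ratios.

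Of the 16 other genes of the FGF family counted, 10 were tested and 0 were called by edgeR, while DESeq2 called 1 higher and 1 lower. In edgeR 3 had an unadjusted p under 0.05, namely Fgf1 and Fgf11 as higher and Fgf4 as lower. Over all genes tested 5971 of 17129 had such a p. With 1 embryo left out edgeR called 1 gene of this list without J6 and 3 without K14J28. The median log2 fold change of the list over all embryos was 0.16. Fgf1, a ligand that binds all FGF receptors and the most abundant of this list by CPM, had 36.2, 42.2, 34.5 and 29.9 CPM in the controls J3, J5, J6 and J7 and 66.4, 37.4, 56.9 and 49.4 CPM in mutants K14J26, K14J28, K14J29 and K14J30. K14J28 overlapped with the controls, and the log2 fold change of 0.56 (SE 0.17) missed the threshold (edgeR adjusted p = 0.0537). Fgf4 is an epithelial ligand of the enamel knots, the signalling centres of the cusps. It had 18, 10, 0 and 25 counts in the controls J3, J5, J6 and J7 and 0, 5, 0 and 0 counts in mutants K14J26, K14J28, K14J29 and K14J30 (edgeR adjusted p = 0.0637). Counts were present in 3 of 4 controls and in 1 of 4 mutants, so that the groups overlapped at 0. Fgf4 passed the count filter only through the controls.

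Fgf4 and Fgf15 are the genomic neighbours of Fgf3. In GENCODE M21 the 3 genes follow each other on the plus strand of chromosome 7, Fgf3 at chr7:144838083-144844436, Fgf4 at chr7:144847367-144865243 and Fgf15 at chr7:144896531-144900953. Fgf15 had 9, 7, 2 and 12 counts in the controls J3, J5, J6 and J7 and 0, 1, 2 and 1 counts in mutants K14J26, K14J28, K14J29 and K14J30, too few to be tested. On the CPM scale every mutant was under every control, with 0.104 CPM in the lowest control and 0.0693 CPM in the highest mutant. Among the genes tested, which did not include Fgf15, 11.6% had all mutants under all controls. An antisense gene shares 761 exon bases with Fgf15 and makes its counts uncertain. Other genes near them, chosen after their values were seen, differed in direction. Whether the genes of this region changed together was not tested. Ano1, on the side of Fgf3, was called higher (log2 fold change 0.66, SE 0.15, edgeR adjusted p = 0.0237). Fadd beyond Ano1 had a log2 fold change of 0.21 (SE 0.15) that was not called (edgeR adjusted p = 0.354). LTO1, on the side of Fgf15, had a log2 fold change of -0.02 (SE 0.07, edgeR adjusted p = 0.850), and Ccnd1 beyond it had a log2 fold change of -0.59 (SE 0.20) that was not called (edgeR adjusted p = 0.0751).

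Co-receptors and ligand-binding proteins of the FGF pathway gave 3 genes called lower and 1 called higher among 15 tested of 17, where 6.61% of all genes tested were called lower and 9.52% higher, and their median log2 fold change was 0.03. Flrt2, a membrane protein that binds FGF receptors, was the gene called higher, at 51.7, 55.2, 43.9 and 49.3 CPM in the controls J3, J5, J6 and J7 and 117, 98.1, 124 and 90.3 CPM in mutants K14J26, K14J28, K14J29 and K14J30. All mutants were well above all controls and close to each other, unlike the spread that the mutants showed for Fgf3 and Fgf9. Its log2 fold change was 1.10 (SE 0.11, edgeR adjusted p = 0.00485). Those called lower were the heparan sulfate proteoglycans Gpc6 (log2 fold change -0.67) and Sdc4 (-0.40) and the FGF carrier Fgfbp3 (-0.63), with edgeR adjusted p of 0.0170, 0.00949 and 0.0119. Among 10 enzymes that build or trim heparan sulfate, Hs6st1 (-0.38) and Ext1 (-0.29) were called lower and Ndst2 (0.27) higher, with edgeR adjusted p of 0.0227, 0.0325 and 0.0474. These 3 of 10 stand beside 16.1% of all genes tested called in either direction. The number of these enzymes called was 0 without J3, J5, J7 or K14J29 and 0 with the Xist covariate, and 1 without J6 or K14J30, and their median log2 fold change was -0.13.

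Between the receptors and the transcriptional targets, the adaptors and Ras-ERK cascade genes showed small differences. Of 21 genes tested, edgeR called 0, with 4 higher and 2 lower at an unadjusted p under 0.05, and DESeq2 called 2, both higher. These 6 of 21 stand beside 5971 of all 17129 genes tested. From the list edgeR called 4 genes without K14J26, 1 without K14J28 and 2 with library size scaling. The log2 fold changes ran from -0.24 to 0.43 with a median of 0.06. Regulators of the splicing that makes the epithelial and mesenchymal receptor isoforms gave 2 calls of 6, Ptbp1 (-0.25, edgeR adjusted p = 0.0231) and Hnrnpa1 (-0.47, edgeR adjusted p = 0.0377), both lower, where 6.61% of all genes tested were called lower, while the epithelial splicing regulators Esrp1 (-0.10) and Esrp2 (0.09) were not called. The number called was 0 without J3, J5, J6, J7 or K14J29, and 1 with the Xist covariate or library size scaling.

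Of the genes that FGF signalling induces, 7 of the 11 tested were called lower and 0 higher by edgeR, and DESeq2 also called 7 lower and 0 higher. Over all genes tested edgeR called 6.61% lower and DESeq2 called 1718 of 17103 lower. The median log2 fold change of the feedback genes was -0.69, against 0.01 over all genes tested. Those called were Spry1, Spry2, Spry4, Spred1, Dusp6, Etv4 and Il17rd, and all 11 estimates were negative. The study had already reported Spry1, Spry2 and Spry4 as lower in these data, so the list was not chosen independently of them. Etv4, a transcription factor downstream of ERK, had 142, 142, 108 and 149 CPM in the controls J3, J5, J6 and J7 and 32.7, 101, 46.2 and 72.5 CPM in mutants K14J26, K14J28, K14J29 and K14J30. It was lowest in K14J26 and next lowest in K14J29, the embryos with the least Fgf3 and Fgf9, and no mutant reached the lowest control. The log2 fold change was -1.09 (SE 0.30, edgeR adjusted p = 0.0392). Spry2, a feedback inhibitor, differed in order, with 40.4, 43.0, 37.5 and 42.0 CPM in the controls J3, J5, J6 and J7 and 21.7, 25.0, 15.7 and 18.0 CPM in mutants K14J26, K14J28, K14J29 and K14J30. Its log2 fold change was -1.02 (SE 0.14, edgeR adjusted p = 0.00695), and its mutants were closer together than those of Etv4. The number called depended on single embryos: it was 1 without J3, 2 without J5, 4 without J6, 1 without J7, 1 without K14J29 and 3 without K14J30.

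**Figure D3:**
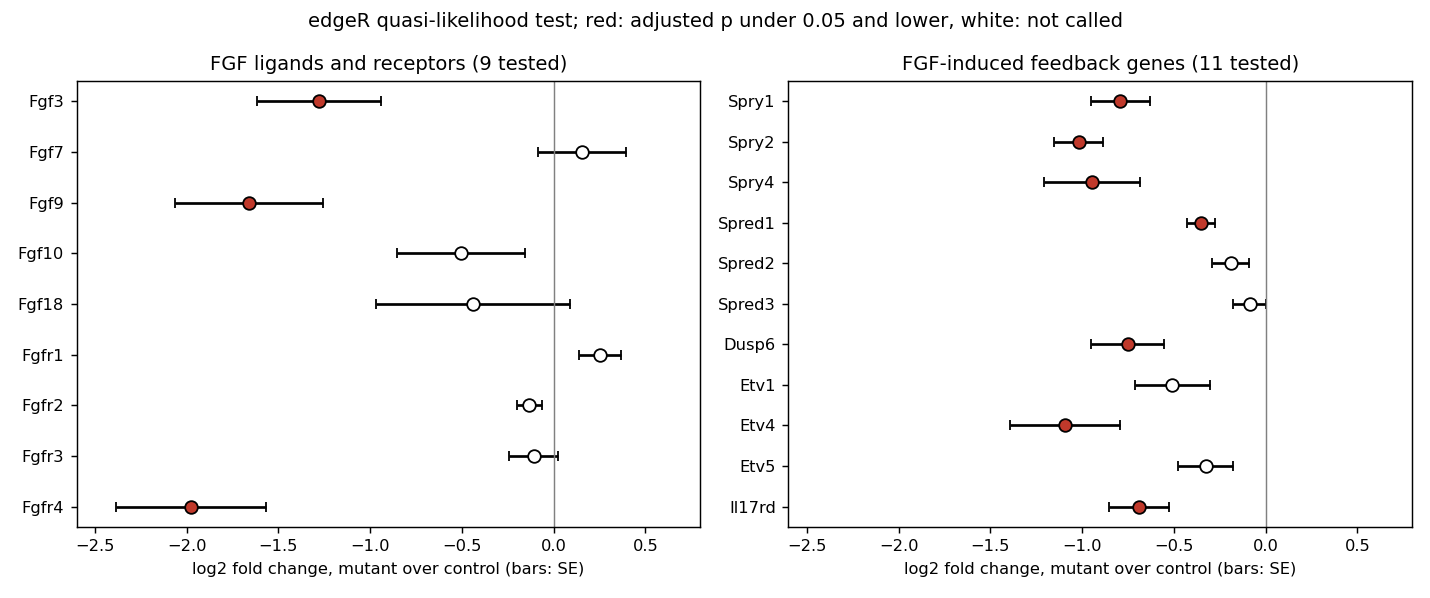
Log2 fold change of mutant over control molars (x axis, bars are SE) for the 9 members tested (left) and the 11 feedback genes tested (right), with genes called lower in red. Fgf3, Fgf9 and Fgfr4 lie from -1.97 to -1.28, the other members lie near 0 or have wide bars, and all 11 feedback genes lie left of 0.

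The mutants did not carry these changes equally. In the order from lowest to highest, Fgf3 read K14J26, K14J29, K14J30, K14J28, and Fgf9 had the same order. Fgfr4 did not, with the order K14J28, K14J29, K14J26, K14J30, so that the mutant with the most Fgf3 and Fgf9 had the least Fgfr4, although the lowest 3 mutants had only 3 or 4 Fgfr4 counts each. The order of Fgf3 and Fgf9 was found in 4 of the 7 feedback genes called lower, Spry1, Spry4, Dusp6 and Etv4, and in 254 of the 1133 genes called lower in all (22.4%), against 12.5% of all genes tested. It was also the order of 5 of 5 red blood cell markers, which are not FGF genes and were not called. The lowest mutant was K14J26 for 6 of 6 leukocyte markers, and for 35.3% of all genes tested. Pearson's r between log2(CPM + 0.5) of Fgf3 and of Fgf9 was 0.979 over the 8 embryos, which share the split into 2 groups. The 3 tested genes most like Fgf3 by the same measure were Gins2 (r = 0.998), Nelfa (r = 0.997) and Mrto4 (r = 0.996). Those most like Fgf9 were Hmgb1 (r = 0.996), Hddc2 (r = 0.994) and Apex1 (r = 0.993). All 6 had lower means in mutants but far smaller changes, with log2 fold changes from -0.55 to -0.18.

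The reverse order of the mutants was found in 5 of 5 ameloblast markers and in 4 of 5 odontoblast markers, Dmp1 being the exception. Fgfr1 and Fgf1 had this order too, as did 2326 of all 17129 genes tested (13.6%) and 621 of the 1631 genes called higher (38.1%). Of 5 ameloblast markers, 4 were called higher in mutants, where 9.52% of all genes tested were called higher. The summed CPM of the list was 680, 1903, 3254 and 557 in the controls J3, J5, J6 and J7 and 114370, 3503, 25820 and 9643 in mutants K14J26, K14J28, K14J29 and K14J30. Amelx, the most abundant of them, was highest in K14J26, then K14J29, K14J30 and K14J28, the reverse of Fgf3 and Fgf9. Odontoblast markers were called higher for 4 of 5 genes, and their sum, led by Col1a1, ran from 4506 to 8442 CPM in controls and from 7810 to 24159 CPM in mutants. None of the defining markers of either list was at 0 in any embryo. The part of these markers in the lower Fgf3, Fgf9 and Fgfr4 was not tested.

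Epithelium and mesenchyme were present in all embryos. Krt14, an epithelial keratin, was called higher (log2 fold change 0.96, edgeR adjusted p = 0.0217) and was the only gene that edgeR called of 10 epithelial markers, while Epcam had a log2 fold change of -0.51 that was not called (edgeR adjusted p = 0.0527). At an unadjusted p under 0.05 in edgeR 6 were higher and 1 lower, and DESeq2 called 5 higher and 1 lower. Of all 17129 genes tested, 3275 were higher and 2696 lower at such a p in edgeR. DESeq2 called 2244 higher and 1718 lower of 17103. The summed CPM of the epithelial list, led by Krt5, ran from 5658 to 6564 in controls and from 6804 to 9968 in mutants. Of 10 mesenchymal markers, 3 were called higher and 4 lower, beside 9.52% and 6.61% of all genes tested. Their sum, led by Col1a1, ran from 9306 to 13867 CPM in controls and from 12622 to 31325 CPM in mutants. This sum is mostly Col1a1, an odontoblast marker too, and Col1a2, while 6 of the 10 log2 fold changes were negative and their median was -0.24. The part of tissue proportions in the lower Fgf3 and Fgf9 was not tested.

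**Figure D4:**
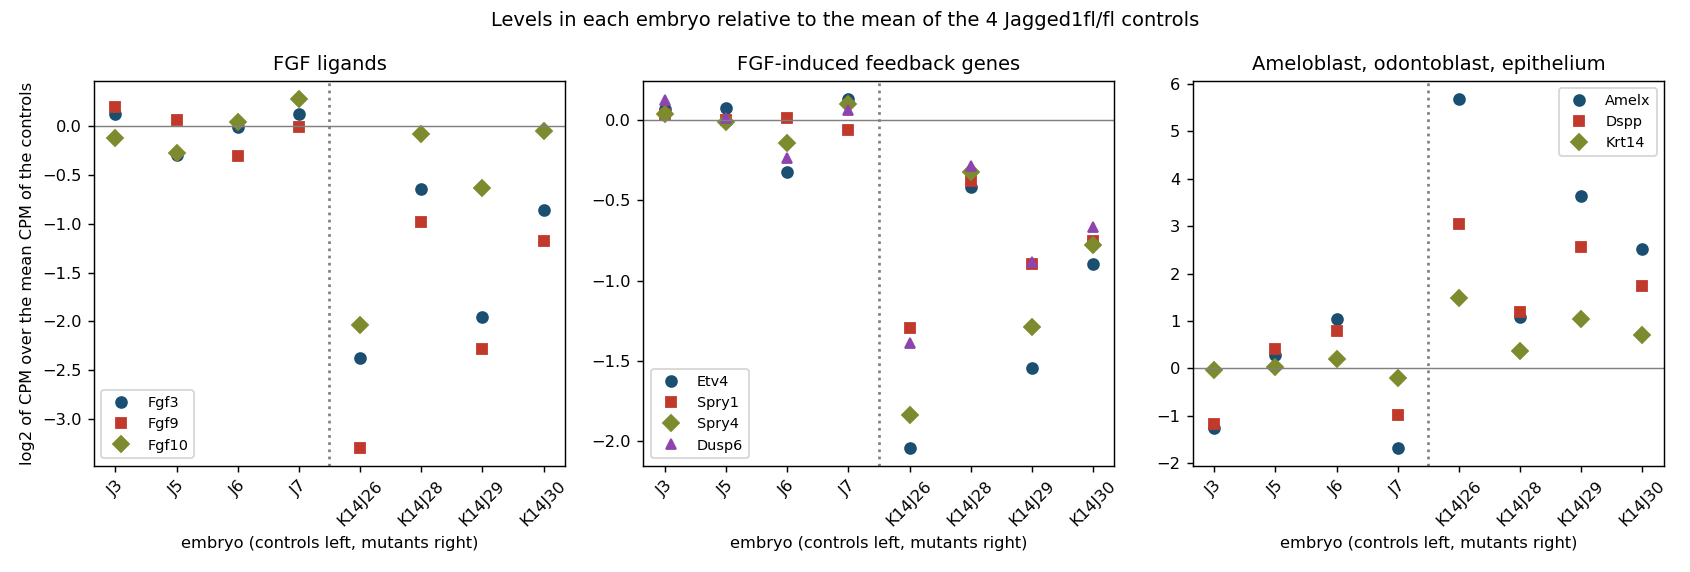
Log2 of CPM over the mean CPM of the 4 controls (y axis) for each embryo, with 3 ligands (left), 4 feedback genes (middle) and 3 markers of ameloblasts, odontoblasts and epithelium (right). K14J26 is farthest from the controls and K14J28 nearest for Fgf3, Fgf9, Krt14 and the feedback genes drawn, Etv4, Spry1, Spry4 and Dusp6, and K14J26 is farthest for Amelx and Dspp.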

How the data were processed

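Polyadenylated RNA of lower first molars from 4 control and 4 mutant embryos was sequenced. The authors trimmed the reads, aligned them with STAR to GRCm38.p3 and deposited, for each embryo, raw counts of reads per Ensembl gene without normalization; the submitters' processing notes name featureCounts for the counting and the methods name GenomicRanges, and the use of strand and of reads with several matches is not given in the sources used here. Groups were taken from the labels. Sex and litter are not given there and were not used as factors.

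Symbols, positions and exon lengths were taken from GENCODE M21 (GRCm38), which matched 42462 of the 43629 identifiers. A gene was kept when 2 or more embryos of 1 group reached 10 counts, and the 17129 genes kept were tested with edgeR 4.0.16 (TMM, glmQLFit and glmQLFTest, no covariates) in R 4.3.3, with Benjamini-Hochberg adjustment over all of them; an SE is the absolute log2 fold change over the square root of F. The fit was tested on simulated data. CPM are counts scaled to the TMM-adjusted library size. Ratios used counts plus 0.5 and exact permutation tests. DESeq2 1.42.0, other scalings and filters, a pseudocount of 2, Xist as a covariate, and leaving out embryos were tried as alternatives. Counts of any 2 embryos of a group differed by more than sampling noise, with a chi-square per degree of freedom of at least 7.16.

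The genes named are the 10 members, genes of the pathway and marker lists given with the count of their list, and, for each called member with a mean of at least 1 CPM, the 3 tested genes with the highest Pearson's r with it. Also named are Jag1, Xist, genes that share exon bases with members, and genes near Fgf3. The members and lists were chosen with earlier results of these data known. Lists of muscle, cartilage, bone, endothelial, leukocyte, Schwann and red blood cell markers were read beside those of the dental tissues: of the genes tested, 1 of 10, 2 of 6, 4 of 6, 1 of 6, 0 of 6, 1 of 5 and 0 of 5 were called by edgeR. In the same order of lists, 9, 2, 4, 3, 0, 1 and 0 had an unadjusted p under 0.05 in edgeR, and DESeq2 called 8, 2, 4, 3, 0, 1 and 0. Over all genes edgeR called 16.1%, 5971 of 17129 had an unadjusted p under 0.05, and DESeq2 called 3962 of 17103. The in situ hybridization and staining experiments of the study are not analysed here.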

Additional observations from a re-analysis of the deposited data

Results flagged for a closer look

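Single embryos far from the other 3 of their group were looked for in the CPM of the 10 members and in the 6 ratios, 32 groups of 4 in all, with Dixon's critical value for the gap to the nearest embryo over the range. Chance alone picks out about 1 in 20 groups, and 3 were found. Fgfr4 in the mutant K14J30, at 0.466 CPM or 12 counts, stood above the other mutants, which had 3 or 4 counts. Fgfr3 in the mutant K14J28, at 50.3 CPM, was the highest of all 8 embryos, while the other mutants lay between 34.1 and 35.8 CPM. The log2 ratio of Fgf9 to Fgf3 in the mutant K14J26, at -0.70, lay below those of the other mutants, which were between -0.11 and -0.10, so that Fgf9 was low in K14J26 even beside its low Fgf3.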

How the results depend on the processing

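Fgf3, Fgf9 and Fgfr4 kept their lower direction in every alternative in which they were tested, and remained called with relative log expression or library size scaling, with DESeq2 and without a count filter; with a filter of 1 CPM in 4 samples Fgf3 and Fgf9 were called, and Fgfr4 and Fgf18 could not be tested. With Xist as a covariate the number of members called was 0 (edgeR adjusted p of 0.0654 for Fgf3, 0.0524 for Fgf9 and 0.0688 for Fgfr4), with log2 fold changes of -1.47, -1.93 and -1.44 in the same order. Without both controls that held muscle, J6 and J7, 0 members, 0 feedback genes and 7 genes in all were called, with 2 controls left. The log2 fold changes in this setting were -1.21 for Fgf3, -1.79 for Fgf9 and -1.998 for Fgfr4. With all 8 embryos they were -1.28, -1.66 and -1.97 in the same order. Leaving out 1 embryo gave between 0 and 3 members, between 1 and 8 feedback genes and between 420 and 4322 genes called, against 2764 with all 8 embryos, the fewest without K14J29 and the most without K14J28. Library size scaling called 4 feedback genes and made 44.6% of all calls higher, against 59.0% with TMM. Estimates near 0 changed sign: Fgf7 was -0.16 with the Xist covariate and ran from -0.0466 (without K14J28) to 0.285 (without K14J30), Fgfr3 was 0.00655 without J6 and J7, and the difference in the log2 ratio of Fgfr3 to Fgfr2 ran from -0.0729 (without K14J28) to 0.0759 (without K14J26). The cause of these shifts was not tested. No gene called in the full comparison changed direction in any alternative.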

Other observations

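Xist, transcribed from the inactive X chromosome of females, was at 1930 CPM in the mutant K14J28 and 1468 CPM in the mutant K14J29 and at no more than 1.09 CPM in the other 6 embryos, so that sex was not balanced between the groups. Of the mutants, K14J28 had the most and K14J29 the second least Fgf3 and Fgf9. No control had high Xist, and with Xist as a covariate 0 members were called. The part of sex in the lower ligands was not tested further. Fgf23, a ligand of phosphate control, was too weak to be tested. It had 3, 5, 7 and 7 counts in the controls J3, J5, J6 and J7 and 1, 2, 0 and 2 counts in mutants K14J26, K14J28, K14J29 and K14J30. On the CPM scale every mutant was below every control, as for Fgf15 and for 11.6% of the genes tested. The other ligands too weak to be tested in the list with Fgf23, Fgf5, Fgf6, Fgf8 and Fgf22, overlapped between the groups.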
